A study of Musca domestica with 16 samples.

Results

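Diptericin (LOC101897067), defensin-1 (LOC101887540) and the 4 other genes that share the ortholog group of defensin-1 were examined in the house fly, Musca domestica, 6 of the 14631 genes of the authors' deposited table. Diptericin and defensin-1 were chosen by their FPKM and q values in the comparison of male heads between the strains, and the other 4 genes follow from the group. Their values in male heads are therefore a description, with no test. Each value is the authors' FPKM (sequenced fragments scaled by transcript length and by library size).

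The samples came from 8 groups, YM male heads and YM testes of strain CSaY, IIIM male heads and IIIM testes of strain CS, CSaY and CS female heads, and CSaY and CS ovaries. In CSaY the male determiner lies on the Y chromosome and in CS on chromosome III, and females are named here by their strain. All flies were unmated adults 4 to 6 days old kept at 25 °C, with no infection or other treatment named in the labels. Each male group had 3 libraries, summarised by the authors to 1 value, and each female group had 1 library. Spread between libraries and total read depth thus cannot be given for any gene, and nothing in the labels says whether replicates came from separate cultures. There is 1 strain of each type, so the position of the determiner and the rest of the strain cannot be told apart.

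Antimicrobial peptides are short secreted proteins that kill microbes. Insects make them mainly in the fat body, blood cells and surface epithelia, and in Drosophila their genes are switched on through the Toll and Imd pathways, which end in transcription factors of the NF-kappa-B family. Diptericins are glycine-rich peptides active mostly against Gram-negative bacteria, and in Drosophila they are a standard readout of the Imd pathway. Insect defensins are small peptides held by disulphide bonds and act mostly against Gram-positive bacteria.

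The genes lie at 2 places. The 5 genes of the defensin-1 group stand side by side on scaffold NW_004754939 of chromosome V, between positions 227551 and 256300 as the deposited table gives them, in the order defensin-1, LOC101887709, LOC101887872, LOC101888043 and LOC101888225. The first 4 are 1374 to 3523 bases apart, and LOC101888225 follows after a further 19707 bases. The table pairs the group with a single Drosophila gene, FBgn0010385. Diptericin lies on scaffold NW_004765871 of chromosome III (134121 to 134577), 5049 bases from LOC101896897, the only other gene of its ortholog group. All are short, spanning 313 to 417 bases in the defensin-1 group and 456 bases for diptericin. The division of reads between such copies is not stated in the labels or the file, and the levels of single copies are uncertain for that reason.

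**Figure D1:**
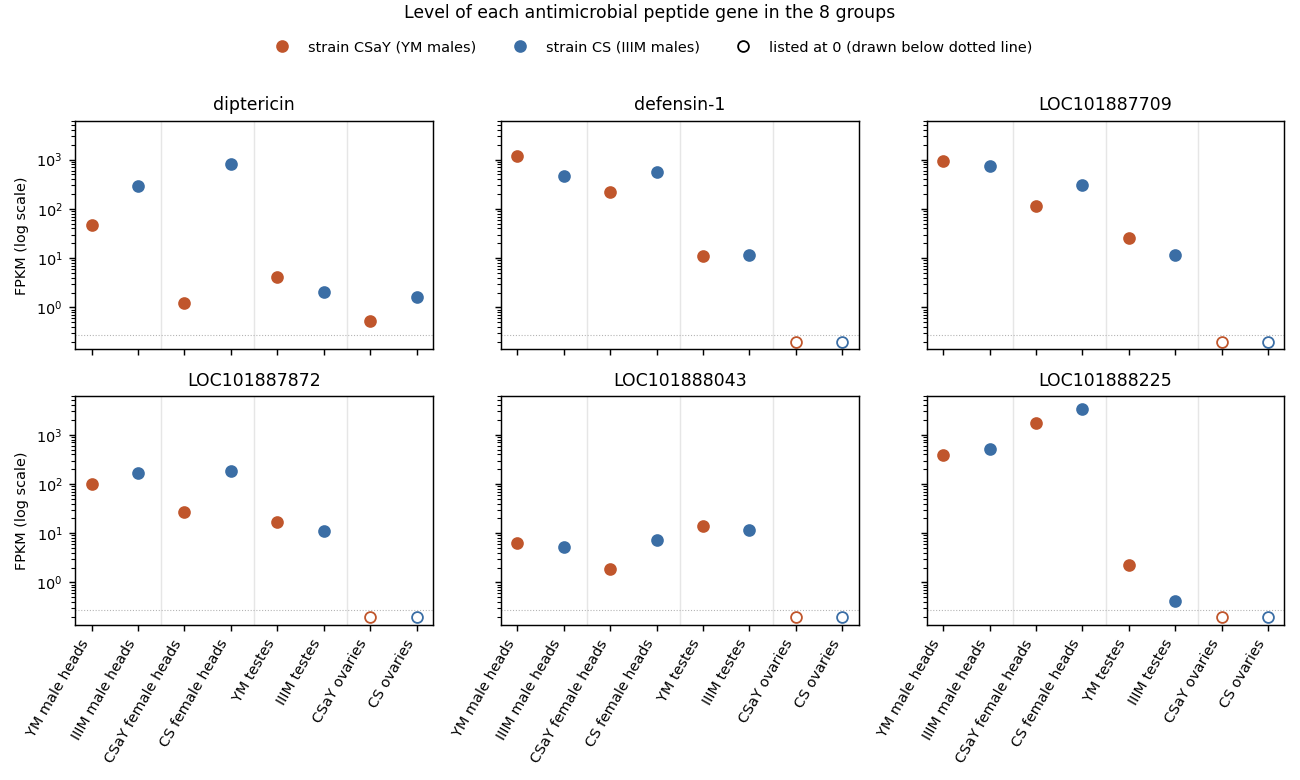
FPKM of each of the 6 genes (y axis, log scale) in the 8 groups (x axis), 1 point per group, orange for strain CSaY and blue for strain CS. Open points below the dotted line are listed at 0. Head points lie above gonad points in every panel except that of LOC101888043 and, for CSaY female heads, that of diptericin.

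Defensin-1 was among the abundant transcripts of heads. It stood at 1171 FPKM in YM male heads, 471.9 FPKM in IIIM male heads, 215.7 FPKM in the CSaY female head library and 550.8 FPKM in the CS female head library. These levels lay between the 95.03 and the 98.8 percentile of all genes in their columns. Testes held 11.0 FPKM in YM males and 11.3 FPKM in IIIM males, and both ovary libraries are listed at 0. The order from high to low was thus YM male heads, CS female heads, IIIM male heads, CSaY female heads, IIIM testes, YM testes and the ovaries.

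Diptericin ranged more widely over the head groups than defensin-1. It stood at 48.1 FPKM in YM male heads, 297.7 FPKM in IIIM male heads, 1.23 FPKM in the CSaY female head library and 818.8 FPKM in the CS female head library. The first of these values is at the 82.8 percentile of its column, the CSaY female value at the 37.8 percentile and the CS female value at the 98.2 percentile. Testes held 4.18 FPKM in YM males and 2.08 FPKM in IIIM males, and ovaries 0.526 FPKM in CSaY and 1.62 FPKM in CS. The CSaY female head library therefore sat among the gonads in this gene, below both testis groups.

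The other members of the defensin-1 group fell into unlike patterns. LOC101887709 stood at 922.9 and 729.5 FPKM in YM and IIIM male heads and at 114.3 and 306.4 FPKM in CSaY and CS female heads, so male heads held the higher values. LOC101888225 had the reverse order, with 392.5 and 525.8 FPKM in YM and IIIM male heads and 1717 and 3313 FPKM in CSaY and CS female heads. LOC101887872 stood at 98.9 and 166.0 FPKM in YM and IIIM male heads and at 26.9 and 179.5 FPKM in CSaY and CS female heads. LOC101888043 was scarce in heads, at 6.48 and 5.18 FPKM in YM and IIIM male heads and 1.87 and 7.17 FPKM in CSaY and CS female heads. It was the single member with more transcript in testis than in male head, 2.19-fold in YM and 2.27-fold in IIIM males. The deposited table has no test of head against gonad.

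In male heads of strain CSaY diptericin was lower and defensin-1 higher, and the other members were split. Diptericin differed 6.19-fold (-2.60 on the log2(FPKM + 1) scale, YM minus IIIM) and defensin-1 2.48-fold the other way (1.31 on that scale). LOC101887872 was 1.68-fold lower in YM heads. LOC101887709 and LOC101888043 were 1.27-fold and 1.25-fold higher and LOC101888225 was 1.34-fold lower, and the authors' q for these 3 genes lay above 0.05. In all, 3 of the 6 genes had a q below 0.05, 1 higher and 2 lower, in a comparison where 9.25% of the tested genes did. Because this comparison chose the genes, nothing is read from that count. The summed level of the defensin-1 group was 2591 FPKM in YM and 1898 FPKM in IIIM male heads.

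**Figure D2:**
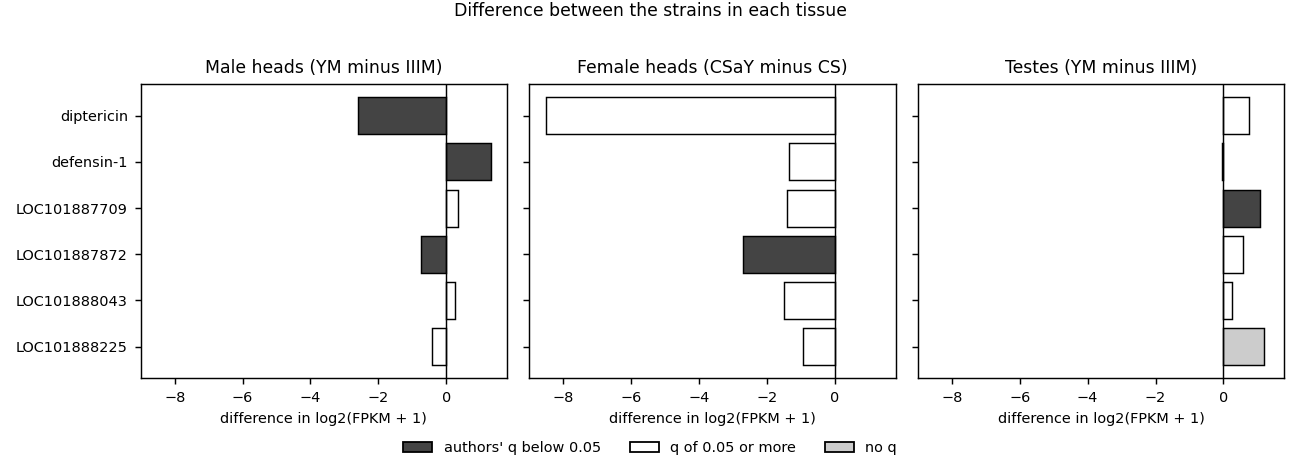
Difference between strains in log2(FPKM + 1), CSaY minus CS, for each gene (rows) in male heads, female heads and testes. Dark bars have an authors' q below 0.05, white bars a higher q and the grey bar no q. All 6 bars point to lower levels in CSaY female heads, while 3 of 6 do so in male heads and 1 of 6 in testes.

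Between the female head libraries all 6 genes were lower in CSaY, where 50.4% of all tested genes were. Diptericin stood at 1.23 FPKM in the CSaY library, against 818.8 FPKM in the CS library, a ratio of 663.6. Among the 9422 genes with values above 0 in both libraries and a q, the ratio was second in size, in either direction, to that of LOC101896897, its neighbour of the same ortholog group (2.40 FPKM in CSaY, 2194 FPKM in CS, ratio 914.4). Both of these genes have low CSaY values, so the size of their ratios is uncertain. For diptericin the difference was -8.52 on the log2(FPKM + 1) scale, and -9.26 with 0.1 added in place of 1. The defensin-1 group was lower by 2.55-fold for defensin-1, 2.68-fold for LOC101887709, 6.67-fold for LOC101887872, 3.84-fold for LOC101888043 and 1.93-fold for LOC101888225. Thus 5 of the 6 genes were at least 2-fold lower, where 4.34% of all tested genes were. Their median difference was -1.46 on the log2(FPKM + 1) scale, and that of all tested genes was -0.0039. The genes of the defensin-1 group are neighbouring copies, and the division of reads between them is not stated. They are therefore not separate observations to set against all genes.

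These differences set 1 library against 1 library and have no replicate check. The authors' q lay below 0.05 for LOC101887872 alone (q = 0.00860, 26.9 FPKM in CSaY and 179.5 FPKM in CS), with 0.772% of the tested genes called. It was 0.998 for diptericin, 0.210 for defensin-1 and 0.123 for LOC101887709 in the authors' deposited table. A q of this kind compares those libraries, not the strains. The authors' test statistic was -17.2 for diptericin and -10.2 for LOC101887872, so the order of q was not that of the statistic. The low-value steps of both libraries show that 1 read was worth 1.21 times as much FPKM in CSaY as in CS, and the part of depth in these differences was not tested.

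In testes 1 of the 5 tested members had a q below 0.05 between the strains, and nothing is read from so small a count. LOC101887709 rose 2.21-fold in YM testes (26.1 FPKM, against 11.8 FPKM in IIIM testes; q = 0.0167 in the authors' deposited table), where 13.0% of the tested genes were called in either direction and 7.61% higher in YM. Defensin-1 had 11.0 FPKM in YM and 11.3 FPKM in IIIM testes (q = 0.973 in the authors' deposited table). LOC101887872 had 17.0 and 11.1 FPKM (q = 0.293), LOC101888043 14.2 and 11.7 FPKM (q = 0.718), and diptericin 4.18 and 2.08 FPKM (q = 0.352), each in YM and IIIM testes in that order. LOC101888225 was not tested, with 2.25 FPKM in YM and 0.427 FPKM in IIIM testes. In IIIM testes the first 4 genes of the cluster stood between 11.1 and 11.8 FPKM, although the same genes spanned 5.18 to 729.5 FPKM in IIIM male heads.

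As deposited, the make-up of the defensin-1 group differed by sex and tissue. LOC101888225 made up 82.7% of the summed FPKM of the 5 genes in CSaY female heads and 76.04% in CS female heads. Its share was 15.1% in YM and 27.7% in IIIM male heads, and 3.19% in YM and 0.920% in IIIM testes. In YM male heads defensin-1 (45.2%) and LOC101887709 (35.6%) led. In IIIM male heads LOC101887709 led with 38.4%, followed by LOC101888225 and then by defensin-1 at 24.9%. LOC101888043 reached 20.1% in YM and 25.3% in IIIM testes, and at most 0.273% in any head group. These shares carry no error, since no group has values of single libraries here. They also depend on how reads were divided between the copies, which is not stated.

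**Figure D3:**
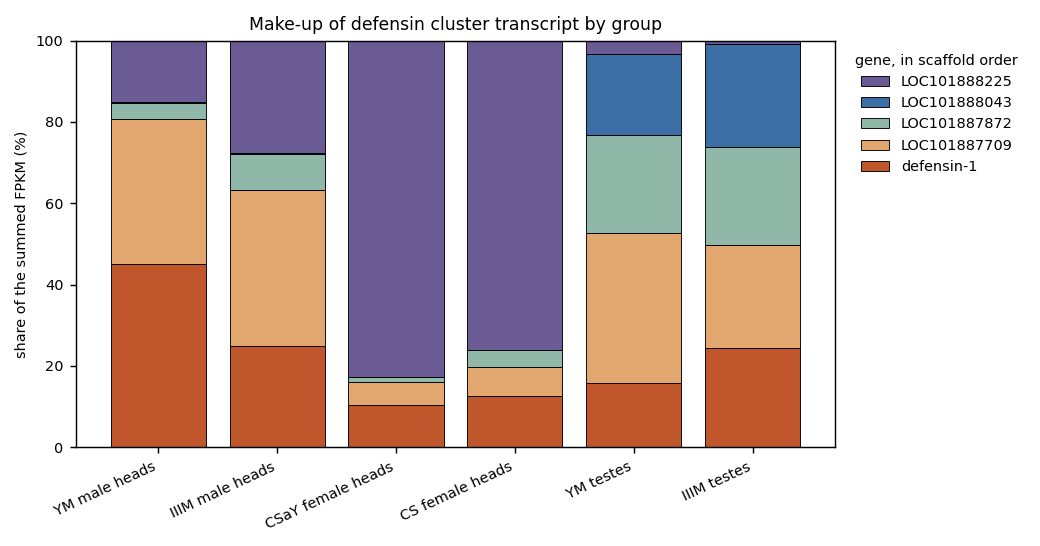
Share of each gene in the summed FPKM of the 5 genes of the defensin-1 group (y axis, percent) in 6 groups (x axis), stacked in scaffold order from bottom to top. The ovaries are left out because all 5 genes are listed at 0 there. LOC101888225 fills most of both female head bars, and 4 genes share the IIIM testis bar about evenly.

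Male and female heads differed in opposite directions in genes of the defensin-1 group. The levels in this comparison are means of the CSaY and CS columns of each sex, while the q is the authors' own for both strains together. LOC101887709 was 3.93-fold higher in male heads (826.2 FPKM in male and 210.4 FPKM in female heads; q = 0.000717 in the authors' deposited table). LOC101888225 was 5.48-fold lower in male heads (459.2 FPKM in male and 2515 FPKM in female heads, with the same q). That q is the smallest of this comparison and is shared by 675 genes. For LOC101887709 and LOC101888225 the strain columns of the sexes did not overlap. How many of all genes do the same was not counted, so this is a description. Diptericin was 2.37-fold lower in male heads (172.9 FPKM in male and 410.0 FPKM in female heads; q = 0.00563 in the authors' deposited table). Its strain columns overlapped, since 1 of the female libraries lay below both male groups and the other above both. In total 3 of the 6 genes were called, 1 higher and 2 lower in males, where 13.3% of the tested genes were called, 2.12% higher and 11.2% lower.

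Male and female columns also differed over all genes. The median difference of all tested genes was 0.31 on the log2(FPKM + 1) scale for male minus female heads, and 0.23 for testes minus ovaries. Whether this reflects the scaling of the columns was not tested. Relative to the median in heads, LOC101887709 differed by 1.66, LOC101888225 by -2.76 and diptericin by -1.55.

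Defensin-1, LOC101887872 and LOC101888043 did not pass this test. Defensin-1 had 821.3 FPKM in male and 383.3 FPKM in female heads (q = 0.198 in the authors' deposited table). LOC101887872 had 132.4 and 103.2 FPKM (q = 0.717) and LOC101888043 5.83 and 4.52 FPKM (q = 0.972) in male and female heads. For the last 2 the sign of the authors' test statistic was the other way, lower in male heads.

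The defensin-1 group was detected in testes and listed at 0 in both ovary libraries. As the mean of both strains, defensin-1 stood at 11.2 FPKM in testes, LOC101887709 at 18.9 FPKM, LOC101887872 at 14.0 FPKM and LOC101888043 at 13.0 FPKM, and all 4 were called higher than ovary (q = 0.000102 in the authors' deposited table for each). That q is the smallest of this comparison and is shared by 5169 genes. Between these organs 73.6% of the tested genes were called, 32.4% higher in testis. LOC101888225 averaged 1.34 FPKM in testes and was not tested. Diptericin was not called, at 3.13 FPKM in testes and 1.07 FPKM in ovaries (q = 0.199 in the authors' deposited table). About 29.3% of all genes are listed at 0 in the CSaY and 30.1% in the CS ovary library, and no fold is given against a value of 0. Between the strains, diptericin had 0.526 FPKM in the CSaY and 1.62 FPKM in the CS ovary library, and none of the 6 genes was tested there.

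By Pearson's r, diptericin resembled its neighbour of the same ortholog group most closely. Over the 8 groups, Pearson's r of log2(FPKM + 1) between diptericin and LOC101896897 was 0.985, first among 10348 genes with at least 5 FPKM in some group. By Spearman's rho (0.910) the same gene took place 8, tied among 4 genes, and with a pseudocount of 0.1 it took place 2. LOC101896897 stood at 160.2 FPKM in YM and 463.0 FPKM in IIIM male heads, 2.89-fold lower in YM. In the head groups diptericin had between 30.04% and 64.3% of the level of this gene. The next most alike were LOC101888457 (r = 0.962), LOC101895247 (0.954), LOC101887777 (0.950) and LOC101901341 (0.941). These correlations describe 8 group values that share libraries with every gene, and carry no test.

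Defensin-1 was not among the genes most like diptericin (r = 0.750, place 382). The closest to defensin-1 itself were LOC101900296, LOC101887641, LOC101897502, LOC101896391 and LOC101901538, with r from 0.997 to 0.999. Within its own group the r with defensin-1 was 0.986 for LOC101887709, 0.958 for LOC101887872, 0.921 for LOC101888225 and 0.547 for LOC101888043.

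Genes next to the clusters did not all follow them. LOC101897244, which begins 3002 bases beyond diptericin, had 11.3 FPKM in YM and 18.0 FPKM in IIIM male heads and 3.49 FPKM in CSaY and 16.0 FPKM in CS female heads (q = 0.0153 between the female libraries in the authors' deposited table). LOC101896540, on the other side of diptericin, had 32.0 and 23.3 FPKM in YM and IIIM male heads and 28.7 and 33.0 FPKM in CSaY and CS female heads, with a q above 0.05 in both comparisons. The table gives it the same locus as LOC101896721. Beside the defensin-1 group, LOC101888392 had 115.2 and 119.7 FPKM in YM and IIIM male heads and 68.6 and 72.1 FPKM in CSaY and CS female heads. LOC101887261, on the other flank, was at 2.74 and 3.33 FPKM in YM and IIIM male heads and at 9.38 and 4.64 FPKM in CSaY and CS female heads, higher in CSaY than in CS there and not called (q = 0.747 in the authors' deposited table).

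Other immune genes were searched for by name. Only 52 symbols were available for this, so most genes could not be found by name. A name without a match does not show that the gene is absent, and ortholog groups without a symbol were not searched. Of 26 names of antimicrobial peptides, recognition proteins, signalling factors and melanization enzymes, 3 matched a gene, namely both peptides above and lysozyme, an enzyme that cuts bacterial cell walls. Lysozyme had 0.478 FPKM in YM and 0.124 FPKM in IIIM male heads, but 150.1 FPKM in the CSaY and 98.7 FPKM in the CS female head library (q = 0.601 between the sexes in the authors' deposited table). It thus lay higher in CSaY than in CS female heads, unlike the 6 genes above, though not called (q = 0.998 between those libraries). Nothing is read from this 1 gene about other immune genes. Ortholog groups 1491, 1498 and 1460, for which no name was available, are described under Other observations. Most of their genes tested between the female head libraries were lower in CSaY. The table gives lysozyme and several relatives a single shared locus, so its own level is uncertain. Of the 24 genes in its ortholog group, 2 were tested between male heads, 9 between testes and 8 between female heads. None was called between strains, where 9.25%, 13.0% and 0.772% of all tested genes were, in that order. With so few genes tested, nothing is read from that count. A count at an unadjusted p is not given, since the table holds no p values and the distribution of its test statistic is not stated.

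Markers of the tissues could be checked through few names. Bcd, the maternal gene that patterns the embryo in Drosophila, stood at 249.7 FPKM in the CSaY and 252.5 FPKM in the CS ovary library and was listed at 0 in all 4 head groups. None of the names searched for head, testis or blood cells matched a gene. Of 6 names for the fat body, a main source of these peptides, only yp3 matched, a yolk protein gene. It had 3.82 FPKM in YM and 66.0 FPKM in IIIM male heads, and 1328 FPKM in the CSaY and 346.7 FPKM in the CS female head library. Its difference ran the same way as that of diptericin in male heads and the opposite way in female heads. Fewer cells of a type and less RNA per cell cannot be told apart in such samples, and the part of fat body content in these results was not tested.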

How the data were processed

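PolyA RNA of heads and gonads was sequenced from TruSeq libraries, 16 in all, per the labels' protocols. Tools named in the submitters' processing notes are TopHat2 2.0.8b, Cufflinks 2.2.1, CASAVA 1.8.2 and Bowtie2 2.1.0.0. No role of any tool and no genome build is stated there. The authors deposited 1 FPKM value per strain, sex and tissue, and for each of 6 comparisons a q value and a test statistic (unit score), per the file headers. The authors' q values were used as deposited with a threshold of 0.05, and the authors' deposited score gave the direction of calls between the sexes. A further 4 FPKM columns, each over both strains of a sex and tissue, belong to no single group and were not used here, although the plan had named them. Levels of a sex are means of its strain columns instead. No source here says whether columns of both sexes were scaled together.

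Computed here were log2(FPKM + 1) differences, ratios, percentiles, shares, Pearson correlations over 8 groups, and counts of called genes (Python 3.11.15, numpy 2.4.6, pandas 2.3.3, matplotlib 3.10.9). The code for the calls and for the most alike genes was checked on simulated data, which is no test of the results. Names, and nothing else, come from a RefSeq table (assembly GCF_030504385.1), which holds 12168 of 14631 gene IDs (83.2%) and 52 symbols. Named are all members, the other gene of diptericin's group, the 5 genes most like each peptide, listed genes within 50 kb, and matched immune and tissue genes. The members and lists were chosen with earlier results of these data known. Peptide and promoter sequences were not used here. Alternatives were calls at q below 0.01 or with at least 2-fold change, 0.1 as the pseudocount, a mean FPKM of at least 1, median centring, upper-quartile scaling and Spearman's rho.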

Additional observations from a re-analysis of the deposited data

Results flagged for a closer look

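Some genes were called between the strains in 1 tissue and stood at least 2-fold the other way in another, as plain FPKM ratios. The difference between tissues or sexes was not tested in any of them, and how many of all genes do the same was not counted. Because diptericin and defensin-1 were chosen by their values in male heads, their calls there are a description. Diptericin was lower in YM male heads (-2.60 on the log2(FPKM + 1) scale, CSaY minus CS) and higher in YM testes (0.75), where it was not called. Its testis values were low, 4.18 FPKM in YM and 2.08 FPKM in IIIM males. Defensin-1 was higher in YM male heads (1.31) and lower in the single CSaY female head library (-1.35). LOC101887709 was higher in YM testes (1.08) and lower in the CSaY female head library (-1.41). The male values are the authors' group values, so it was not seen whether every library moved that way.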

How the results depend on the processing

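The results for the 6 genes were recomputed under 177 combinations of result and setting in all. The authors' q values stayed as deposited, so a change of pseudocount or median centring could not change a call. With a q below 0.01, 0 of the 5 tested members remained called between the testes (LOC101887709, q = 0.0167), and LOC101887872 was no longer called between male heads, nor was it with a minimum of 2-fold. In the sex comparison of heads, the difference of LOC101888043, not called, reversed to -0.0019 after median centring. Upper-quartile scaling changed the order of 1 pair of groups for diptericin, the CSaY female heads and CS ovaries. Of the 5 genes most like diptericin 0 were among the first 5 by Spearman's rho, and of those most like defensin-1 0 by rho and 3 with a pseudocount of 0.1, so these short lists depend on the measure. Between the ovary libraries, where no member was tested, the difference of diptericin was -0.78, -1.45 with a pseudocount of 0.1 and -0.77 after median centring.

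Columns pooling the strains were not set against the strain columns, since they were not used. Leaving out replicates was not run, because each male group has 1 value in the data analysed here. No paired analysis was possible because the columns hold 1 value per group. The promoter motif search was not run, since no sequences were used. Depth is unknown beyond the relative worth of 1 read in the female libraries.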

Other observations

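Larger gene families were followed between the heads of the strains. They were chosen after their values were seen, as the ortholog groups with at least 5 genes that hold a gene among the 5 most like diptericin by Pearson's r or Spearman's rho. Since that choice used the same columns, the counts are a description.

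Ortholog group 1491 holds 11 genes, among them LOC101897244 beside diptericin, and the table pairs it with the Drosophila genes FBgn0041581, FBgn0012042, FBgn0041579 and FBgn0038530. All 9 genes tested between the female head libraries were at least 2-fold lower in CSaY, where 4.34% of all tested genes were. The table gives 4 of them a single shared locus (LOC101893852, LOC101893688, LOC101893519 and LOC101893350), so their own levels are uncertain, and the 5 tested genes with a locus of their own were all at least 2-fold lower. LOC101893852, one of the 4, stood at 2.39 FPKM in the CSaY and 130.2 FPKM in the CS female head library, a ratio of 54.5, with 2.49 FPKM in YM and 2.71 FPKM in IIIM male heads. LOC101896914 stood at 0.385 and 23.4 FPKM in CSaY and CS female heads and at 4.75 and 33.5 FPKM in YM and IIIM male heads. Between male heads 3 of 6 tested genes were called, all lower in YM, where 5.86% of tested genes were. LOC101889508 was not called, at 75.6 FPKM in YM and 62.4 FPKM in IIIM male heads.

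Ortholog group 1498 holds 10 genes and is paired with FBgn0000276, FBgn0000279, FBgn0000277 and FBgn0000278. Each of the 7 genes tested between male heads was at least 2-fold lower in YM, where 4.01% of all tested genes were, and 2 of them were called. LOC101901516 had 46.6 FPKM in YM and 137.2 FPKM in IIIM male heads, and 4.47 FPKM in the CSaY and 49.8 FPKM in the CS female head library. All 5 genes tested between the female libraries were at least 2-fold lower in CSaY, where 4.34% of all tested genes were. LOC101888936 was listed at 0 in the CSaY and at 153.3 FPKM in the CS female head library. The levels of single copies in such a family are uncertain, as above.

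Ortholog group 1460 holds 12 genes and was mixed. Between the female head libraries 5 of 8 tested genes were at least 2-fold lower in CSaY and 1 was at least 2-fold higher. Over all tested genes 4.34% were that much lower and 4.75% that much higher. Of the 6 tested genes with a locus of their own, 3 were at least 2-fold lower. LOC101895422, which shares its locus with LOC101895247, had 2.77 FPKM in the CSaY and 46.3 FPKM in the CS female head library but 33.3 FPKM in YM and 34.7 FPKM in IIIM male heads. LOC101890896 went the other way, at 19.8 FPKM in the CSaY and 6.64 FPKM in the CS female head library. These female values rest on 1 library per strain.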
